A study of Mus musculus with 2 samples.

Results

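The histone cluster genes are the genes whose names in the deposited table start with Hist1h, Hist2h, Hist3h or Hist4h, and 57 of the 25943 genes in the table were members by that rule. They comprised 5 genes for the linker histone H1, 14 for H2A, 15 for H2B (including the pseudogene Hist3h2bb-ps), 10 for H3 and 13 for H4. The table held single-cell UMI values (unique molecular identifiers, each standing for 1 captured transcript) from the bone marrow of wild-type (WT) male mice aged 8 to 10 weeks. There was 1 control library, with 5212 cells, and 1 library labelled MCAO, for middle cerebral artery occlusion, a surgical model of ischaemic stroke, with 5398 cells. The marrow was not sorted, and the time after occlusion, the number of animals and the handling of the controls are not stated in the labels.

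Histones package DNA into nucleosomes: an octamer of H2A, H2B, H3 and H4 wraps the DNA, and H1 binds the linker between nucleosomes. Most genes of the histone clusters are transcribed in S phase, when new DNA has to be packaged, and their mRNAs typically end in a conserved stem-loop bound by SLBP in place of a poly(A) tail. Some members also give polyadenylated transcripts, which have been described in cells that have left the cell cycle. Marrow holds dividing precursors of red cells, granulocytes and B cells beside non-dividing mature neutrophils and B cells.

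The stem-loop is shown because it is the shared mark of the family and because the transcript models differ in how far they run past it. It was searched on the transcript strand as GG, any 2 bases, CTTTT, any base, AG, any base and GCC. In the GENCODE M21 transcripts (GRCm38) these letters were found in 36 of the 57 members and in 10 of 21822 other coding genes, which is 0.0458%. The form printed for Hist1h1c was in 21 members, that of Hist1h3c in 5 and that of Hist1h4i in 2, both for H4. Each line below gives 26 bases from the transcript, 5′ to 3′, with the 16-base stem-loop in capitals.
Hist1h1c: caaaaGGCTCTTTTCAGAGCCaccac
Hist1h1e: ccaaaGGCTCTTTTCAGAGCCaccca
Hist3h2a: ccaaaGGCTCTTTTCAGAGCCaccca
Hist1h2ae: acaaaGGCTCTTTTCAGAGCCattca
Hist1h2bb: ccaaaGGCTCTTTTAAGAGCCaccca
Hist1h3c: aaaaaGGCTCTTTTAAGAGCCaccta
Hist1h4i: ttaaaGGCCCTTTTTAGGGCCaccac
Hist1h1e and Hist3h2a carry the same 26 letters, although their values between cell states differed in direction, as given below. In 19 members the model runs at least 100 bases past the stem-loop, in 17 it ends sooner, and in 21 it holds no such letters. The last group includes Hist1h1b, 2 pseudogenes and 3 members with a looser match. Sequence past the ends of the models, or spliced out of them, was not searched.

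Depth differed between the libraries. The control library held 25886279 UMIs, with a median of 3344 per cell, and the MCAO library 35401492, with a median of 4952. Levels are therefore given as UMIs per 10000 UMIs of the same cells, with exact 95% Poisson intervals that cover counting error only. They were not divided by gene length, since a UMI counts a transcript once, but capture may differ between genes. Whether mRNAs with and without a poly(A) tail were captured alike was not tested. A level therefore describes captured transcripts and need not rank the mRNAs present in a cell. With 1 library per condition no test between conditions was possible, and no difference below has a replicate check. Cell codes were shared by the libraries for 5120 cells; the codes are short numbers, and 14.3% of the pairs fell in the same class, against 13.8% from the class sizes alone.

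Histone cluster genes gave 10799 UMIs in the control library, or 4.17 per 10000, and 14575 in the MCAO library, or 4.12 per 10000. Over both libraries the members ranged from 4 UMIs (Hist1h2ad) to 4558 (Hist1h1c), with a median of 138. The 12 most abundant members took 78.0% of the 25374 histone UMIs, and 14 members had under 50 UMIs in all. The captured UMIs of the set are thus dominated by a few genes, led by Hist1h1c, a linker histone, with 4558 UMIs, Hist1h2bc, an H2B gene, with 4050, and Hist1h1b, another linker histone, with 2247. By transcript model, the 19 members that run at least 100 bases past the stem-loop held 57.1% of the histone UMIs, those without the letters 32.4% and those ending sooner 10.6%.

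To compare dividing and non-dividing cells, each cell was scored by 39 S-phase genes and 44 G2/M genes, none of them a histone cluster gene. Cells with at least 50 list UMIs per 10000, and at least 5 in all, are called cycle-list-high, and all others cycle-list-low. The control library had 1182 high cells (22.7%), with a median of 8898.5 UMIs, and 4030 low cells, with a median of 2802. The MCAO library had 1470 high cells (27.2%), with a median of 11198 UMIs, and 3928 low cells, with a median of 4045.5. Between 40 and 62.5 list UMIs per 10000, near the threshold, lay 229 control and 182 MCAO cells.

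Summed over all members, the histone level was higher in cycle-list-high cells in both libraries. Control cells had 5.52 per 10000 (5.39 to 5.65) in the high set and 2.95 (2.86 to 3.04) in the low set. The MCAO library had 5.68 (5.57 to 5.79) in high and 2.47 (2.40 to 2.55) in low cells. The intervals of high and low cells did not overlap in either library. High cells were also deeper, as the medians above show. With every cell thinned to 1000 UMIs the log2 difference was 0.69 in the control library and 1.00 in the MCAO library, against 0.90 and 1.20 unthinned. The sum hides a split among members: Hist1h1c, Hist1h2bc and Hist3h2a together made up 23.2% of histone UMIs in control high cells and 72.6% in control low cells, and in the MCAO library 22.1% and 69.6%. The other members together had a level of 4.23 in control high cells and 0.808 in control low cells, and 4.42 and 0.75 in the MCAO library. Those 3 members were set apart for their low ratios in these same cells, so the larger difference among the others follows from that choice. Mature-neutrophil-like cells, described below and nearly all low, held 2033 control and 1850 MCAO histone UMIs, beside 3995 and 4257 in all low cells. By transcript model, members ending within 100 bases of the stem-loop were at 0.747 in control high and 0.070 in control low cells. In the MCAO library they were at 0.844 and 0.078. Those that run further were at 3.06 and 1.74, and at 3.10 and 1.57 in the MCAO library. Those without the letters were at 1.71 and 1.14, and at 1.73 and 0.821. Hist1h1c and Hist3h2a are among those that run further and Hist1h2bc among those without the letters, so they enter these low-cell levels.

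Of the 29 members with at least 50 UMIs in the control library, 22 were at least 2-fold higher in high cells and 1 was at least 2-fold lower, on a scale with 0.02 per 10000 added. Over all 12251 genes tested, 23.1% were 2-fold higher and 9.6% 2-fold lower. In the MCAO library 23 of 34 members were 2-fold higher and 0 lower, against 23.1% and 8.89% of 12707 genes. The median log2 difference of the members was 1.39 in the control library and 1.51 in the MCAO library, beside 0.30 and 0.35 over all genes tested. The counts depend on the added value and on depth: they were 7 and 8 with 0.1 added, and 4 and 5 with all cells thinned to 1000 UMIs. Shares over all genes are given for the main setting only, so these counts cannot be set against a background. The remaining 28 control and 23 MCAO members had too few UMIs for this count.

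**Figure D1:**
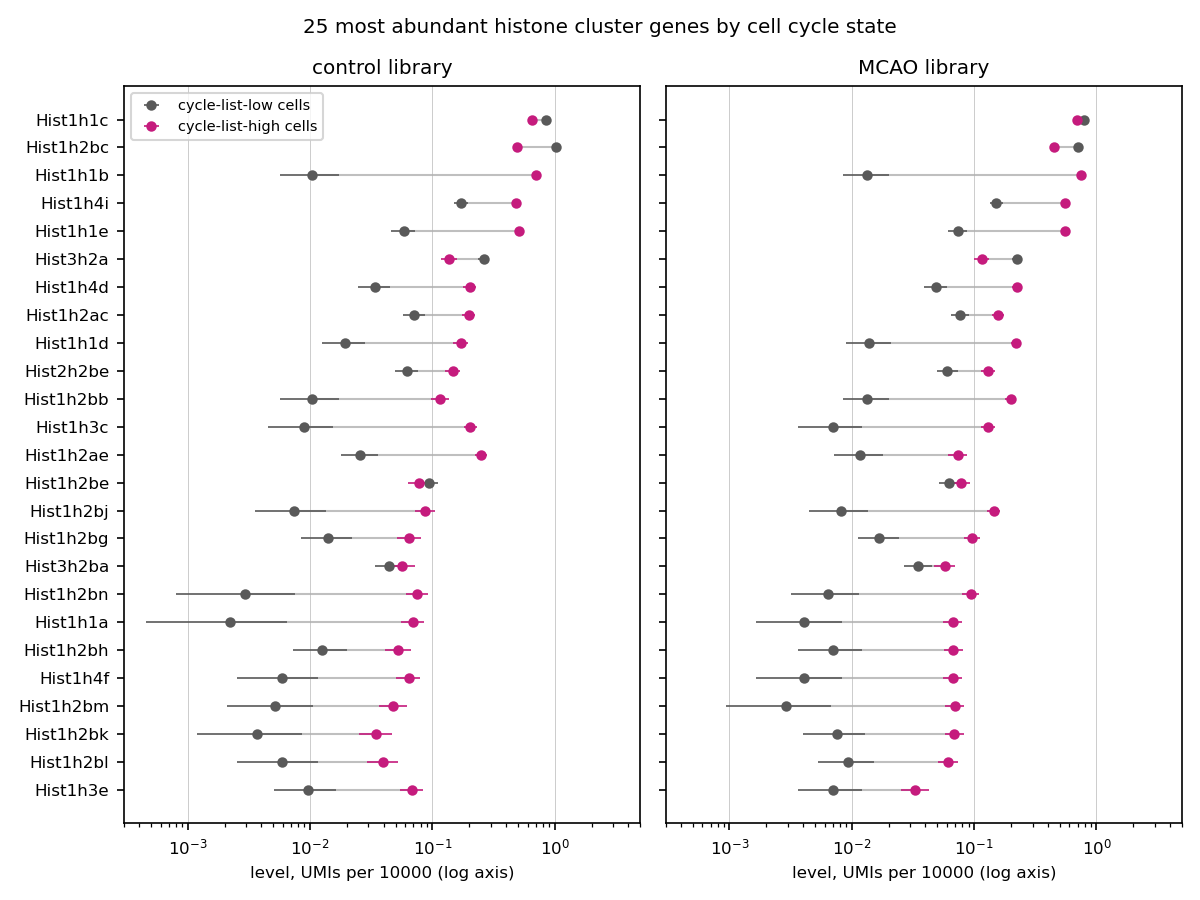
Level of the 25 most abundant histone cluster genes in cycle-list-low (grey) and cycle-list-high (magenta) cells, in UMIs per 10000 on a log axis, 1 panel per library. Points are levels over all cells of a set and bars 95% Poisson intervals; Hist1h1b spans from 0.010 to 0.698 in the control library, while Hist1h1c, Hist1h2bc and Hist3h2a have the grey point to the right in both libraries.

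Among the linker histone genes, Hist1h1b stood at 0.698 per 10000 in control high cells and 0.010 in control low cells, and at 0.742 and 0.013 in the MCAO library. That is 861 against 14 UMIs and 1349 against 23 UMIs, or folds of 67.6 (40.0 to 124) and 55.6 (36.9 to 88.0). A UMI of Hist1h1b was found in 27.6% of control high cells and 32.4% of MCAO high cells, against 0.273% and 0.509% of low cells. After thinning to 1000 UMIs per cell the shares were 5.94% and 5.98% against 0.104% and 0.153%. Nearly all Hist1h1b UMIs of both libraries thus came from cycle-list-high cells, and free RNA of this gene in low cells can be no higher than its level there.

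Hist1h1e, Hist1h1d and Hist1h1a followed in the same direction with smaller folds or fewer UMIs. Hist1h1e was at 0.516 and 0.058 in control high and low cells, and at 0.556 and 0.074 in the MCAO library. Hist1h1d was at 0.170 and 0.019 in the control library, and at 0.220 and 0.014 in the MCAO library. Hist1h1a, with 217 UMIs in all, was at 0.070 and 0.002, and at 0.067 and 0.004. In the annotation the models of Hist1h1e and Hist1h2be overlap by 496 bases on the same strand, and the last 400 bases of Hist1h1e lie in that overlap, so the split of UMIs between those 2 genes is uncertain.

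Hist1h1c did not share that pattern. It was at 0.651 (0.607 to 0.698) in control high cells and 0.843 (0.795 to 0.893) in control low cells, and at 0.689 and 0.789 in the MCAO library. The folds of high over low cells were 0.772 (0.705 to 0.846) and 0.873 (0.808 to 0.944), so pooled over all classes the gene was somewhat lower in high cells. That pooled direction leans on mature-neutrophil-like cells, nearly all of them low. They held 647 control and 669 MCAO UMIs of Hist1h1c and 993 and 758 of Hist1h2bc. All low cells held 2542 and 2578 UMIs of these genes together. Levels of low cells without that class are not given here. Within monocyte-like cells Hist1h1c was at 0.561 in high and 0.455 in low cells of the control library, a fold of 1.23 (0.922 to 1.66), so the direction over all cells was not that within this class. In MCAO monocyte-like cells the fold was 1.33 (1.09 to 1.63). The Hist1h1c gene lies at chr13:23738808-23740367 on the plus strand (GRCm38), and its model runs 840 bases past the stem-loop, with 2 copies of the poly(A) signal letters AATAAA or ATTAAA there.

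The promoters of Hist1h1b and Hist1h1c are shown because the 2 genes have different patterns over the same cells. Each line gives the 150 bases before the RefSeq start on the gene's strand, 5′ to 3′, in GRCm38.p6, at chr13:21780626-21780775 (minus strand) for Hist1h1b and chr13:23738657-23738806 (plus strand) for Hist1h1c. Capitals mark AAACACA, the letters known as the H1 box, CCAAT and TATAAA on either strand.
Hist1h1b: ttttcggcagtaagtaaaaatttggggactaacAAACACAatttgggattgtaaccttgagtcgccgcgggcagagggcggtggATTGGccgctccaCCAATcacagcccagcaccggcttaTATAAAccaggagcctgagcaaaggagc
Hist1h1c: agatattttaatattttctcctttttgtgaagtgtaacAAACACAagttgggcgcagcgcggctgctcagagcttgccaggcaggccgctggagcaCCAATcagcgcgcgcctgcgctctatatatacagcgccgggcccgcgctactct
Both stretches hold AAACACA and CCAAT, and TATAAA is in that of Hist1h1b and not in the printed letters of Hist1h1c. Only these exact letters were searched, and the Hist1h1c stretch holds the similar letters tatatata, which are not marked. In the 300-base windows that RefSeq gave for 50 of the 57 members (250 bases before and 50 after a start), AAACACA was found in 4 of 5 H1 promoters against 7.18% of 32851 promoters. CCAAT was in all 5 H1, 13 H2A, 12 H2B and 8 H3 genes with a window but in 3 of 12 H4 genes, against 37.4% of promoters. These are matches of letters and say nothing about binding.

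The H2A genes held both patterns. Hist1h2ac was at 0.199 in control high cells and 0.071 in control low cells, and at 0.157 and 0.077 in the MCAO library. Hist1h2ae was at 0.252 and 0.026 in the control library, and at 0.073 and 0.012 in the MCAO library. Both were thus higher in high cells, with folds of 2.80 and 9.76 in the control library and 2.03 and 6.30 in the MCAO library. Hist3h2a went the other way: it was at 0.137 and 0.264 in the control library, and at 0.115 and 0.225 in the MCAO library. Its level in high cells was 0.519 (0.429 to 0.624) and 0.512 (0.431 to 0.607) times that in low cells, which is close in both libraries. In the annotation Hist3h2a overlaps Trim17 on the same strand, so the split of UMIs between these genes is uncertain. Of the 14 H2A members 8 had under 50 UMIs in high cells over both libraries, and several of their models share most of their last 400 bases with other H2A genes, so their counts are uncertain.

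The H2B genes also held both patterns, with 8 of 11 tested members 2-fold higher in high cells of the control library and 9 of 13 in the MCAO library. Hist1h2bb was at 0.115 in control high cells and 0.010 in low cells, and at 0.199 and 0.013 in the MCAO library. Hist2h2be was at 0.147 and 0.062 in the control library, and at 0.129 and 0.060 in the MCAO library. Hist1h2bc was at 0.494 (0.455 to 0.535) in control high cells and 1.03 (0.980 to 1.09) in control low cells, and at 0.453 and 0.707 in the MCAO library. It was the 1 member at least 2-fold lower in high cells, and only in the control library, with folds of 0.478 (0.434 to 0.526) and 0.641 (0.586 to 0.700). Mature-neutrophil-like cells, nearly all low, held 993 control and 758 MCAO UMIs of Hist1h2bc, so the pooled direction leans on that class. The direction was not shared by all classes that had enough high and low cells. Plasmacytoid-dendritic-like cells and control B-cell-like cells also had enough, but their folds are not given here. For the pro-B-or-pre-B-like class Hist1h2bc had folds of high over low cells of 2.59 (1.74 to 3.94) in control and 1.89 (0.994 to 3.97) in MCAO cells. In monocyte-like cells the folds were 0.937 (0.670 to 1.31) and 1.47 (1.17 to 1.86), and in erythroid-like cells of the MCAO library 0.501 (0.319 to 0.827). Hist1h2be was near equal over all cells, with folds of 0.830 (0.630 to 1.09) and 1.26 (0.971 to 1.63). The Hist1h2bc model, chr13:23684199-23692908 on the plus strand, holds no stem-loop letters in its 1156-base transcript. The rest of that span is not in the transcript and was not searched.

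For the core histones H3 and H4, all members with enough UMIs had higher levels in high cells, though not all by 2-fold. Hist1h3c was at 0.204 in control high cells and 0.009 in low cells, and at 0.129 and 0.007 in the MCAO library. Hist1h4i, the most abundant H4 gene, was at 0.482 and 0.171 in the control library, and at 0.555 and 0.152 in the MCAO library. Hist1h4d was at 0.203 and 0.034, and at 0.224 and 0.049. Over types, 2-fold higher levels were found for 3 of 4 tested H3 and 3 of 4 tested H4 members in the control library, and for 4 of 6 and 5 of 7 in the MCAO library. Hist2h3c2 had 72 UMIs in all, too few in either library for the count, with 4 UMIs in control high cells and 32 in control low cells.

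Within the cycle-list-high cells, the S share is the fraction of list UMIs that came from S-phase genes. The summed histone level was 6.39, 6.45, 4.53 and 1.65 per 10000 in control cells with a share up to 0.25, 0.5, 0.75 and 1, and 6.27, 6.59, 4.79 and 2.23 in MCAO cells. Cells with a share above 0.75 (122 control and 99 MCAO cells) therefore had the lowest level, with intervals below those of the other bins. Hist1h1b peaked in the second bin, at 1.06 against 0.592, 0.634 and 0.040 in the control library, and at 1.21 against 0.611, 0.548 and 0.085 in the MCAO library. Hist1h1c was lower in each following bin of the control library (0.882, 0.596, 0.517 and 0.317), and Hist1h2bc stayed between 0.434 and 0.566 there. The bins also differ in class mix and in median UMIs, which ranged from 7250 to 10032.5 in the control library; their part was not tested.

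**Figure D2:**
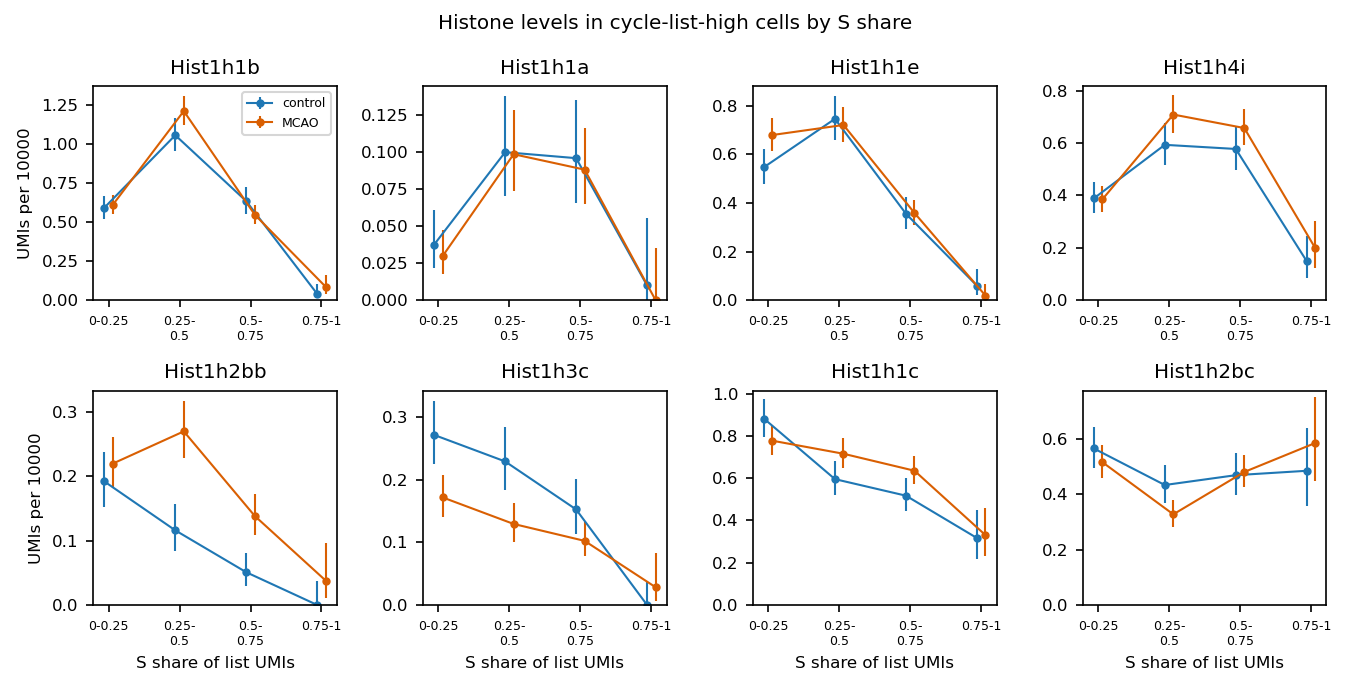
Level of 8 histone cluster genes in cycle-list-high cells, in UMIs per 10000, by the share of list UMIs from S-phase genes, for the control (blue) and MCAO (orange) libraries with 95% Poisson intervals. Hist1h1b peaks between 0.25 and 0.5 at 1.06 and 1.21, the first 6 genes are lowest in the bin of 0.75 to 1, and Hist1h2bc has no such low bin.

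Cells were clustered without the histone genes, and 14 of 19 marker sets named a cluster. The sets for progenitors, conventional dendritic cells, megakaryocytes, plasma cells and endothelial or stromal cells named none at this resolution. With finer clusters a progenitor-like cluster took 253 of the 423 promyelocyte-like cells and a conventional-dendritic-like cluster 106 of the 342 plasmacytoid-dendritic-like cells, so these 2 classes are mixed. The eosinophil-like cluster had Jchain and Iglv1, of the plasma cell set, among its 10 leading genes. Prg2, Epx, Ear1 and Ear6 were there too, so this class may also be mixed. Class names carry "-like" because they rest on markers and not on a deposited annotation. The share of high cells ran from 0.991% (control) and 0.735% (MCAO) of mature-neutrophil-like cells to 99.6% and 99.8% of pre-neutrophil-like cells.

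Mature-neutrophil-like cells had a high histone level as a share of their UMIs, though not per cell, with almost no cells high for the cycle lists. Their summed level was 5.96 (5.70 to 6.22) in control cells and 3.98 (3.80 to 4.17) in MCAO cells, beside 6.18 and 6.29 in erythroid-like cells, of which 87.6% and 85.7% were cycle-list-high. The makeup differed. In mature-neutrophil-like cells Hist1h2bc (2.91 and 1.63) and Hist1h1c (1.90 and 1.44) led, and Hist1h1b had 4 and 8 UMIs, or 0.012 and 0.017. In erythroid-like cells Hist1h1b was at 0.802 and 0.850, Hist1h4i at 0.661 and 0.860 and Hist1h2bc at 0.573 and 0.556.

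Along the neutrophil stages Hist1h2bc was at 0.508, 0.25, 0.300 and 2.91 in promyelocyte-like, pre-neutrophil-like, immature-neutrophil-like and mature-neutrophil-like cells of the control library, and at 0.358, 0.311, 0.305 and 1.63 in the MCAO library. Mature over immature cells gave a fold of 9.69 (8.07 to 11.7) and 5.36 (4.54 to 6.36). Counted per cell, this was 0.757 against 0.153 UMIs in the control library and 0.557 against 0.176 in the MCAO library, although mature cells were shallower (median 2356.5 against 4845 and 3147.5 against 5736 UMIs). The step from immature to mature cells was therefore present on the per-cell scale as well. Promyelocyte-like cells had 0.778 and 0.621 Hist1h2bc UMIs per cell, so mature cells were not the highest on that scale. Hist1h1c showed the same step in level, with folds of 5.48 (4.59 to 6.58) and 2.60 (2.27 to 2.99). Per cell it had 0.176 and 0.320 UMIs in immature and 0.493 and 0.492 in mature cells. The deeper pre-neutrophil-like cells had more Hist1h1c UMIs per cell, at 0.820 and 0.957. Immature-neutrophil-like cells had summed levels of 1.17 and 1.39, the lowest of all classes, although in the MCAO library the intervals of the small T-cell-like and eosinophil-like classes overlapped theirs.

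**Figure D3:**
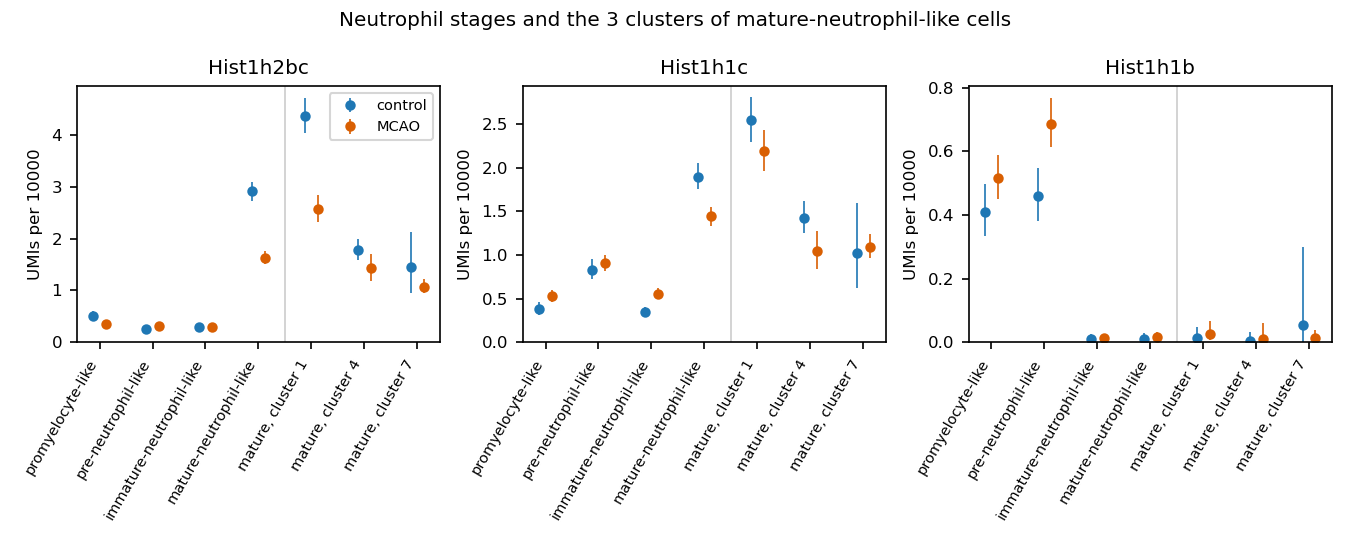
Levels of Hist1h2bc, Hist1h1c and Hist1h1b, in UMIs per 10000 with 95% Poisson intervals, over 4 neutrophil stages and, right of the line, the 3 clusters of mature-neutrophil-like cells, for the control (blue) and MCAO (orange) libraries. On this scale, though not per cell, Hist1h2bc and Hist1h1c are highest in mature-neutrophil-like cells, and Hist1h1b is near 0 there.

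Outside the neutrophils, the leading member of cycle-list-low cells depended on the class. Hist1h1c led in B-cell-like, T-cell-like, basophil-or-mast-like, immature-neutrophil-like and monocyte-like low cells, and Hist1h2bc in erythroid-like, macrophage-like and mature-neutrophil-like low cells. Hist3h2a led in plasmacytoid-dendritic-like and pro-B-or-pre-B-like low cells, with a mean of the library levels of 0.880 and 1.03. Its overlap with Trim17, given above, applies to these values too. Among the pro-B-or-pre-B-like cells Hist3h2a was at 0.799 in low and 0.356 in high cells of the control library, and at 1.26 and 0.249 in the MCAO library. Hist1h4i led in NK-cell-like low cells, which were few. The macrophage-like class had Hist1h2bc at 1.88 and 1.00, from 93 and 68 cells. The small basophil-or-mast-like class (56 and 50 cells) had the highest summed level, 7.71 (6.82 to 8.69) and 10.8 (9.54 to 12.1), with Hist1h1c at 1.60 and 2.58 and Hist1h2ac at 0.885 and 2.30.

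**Figure D4:**
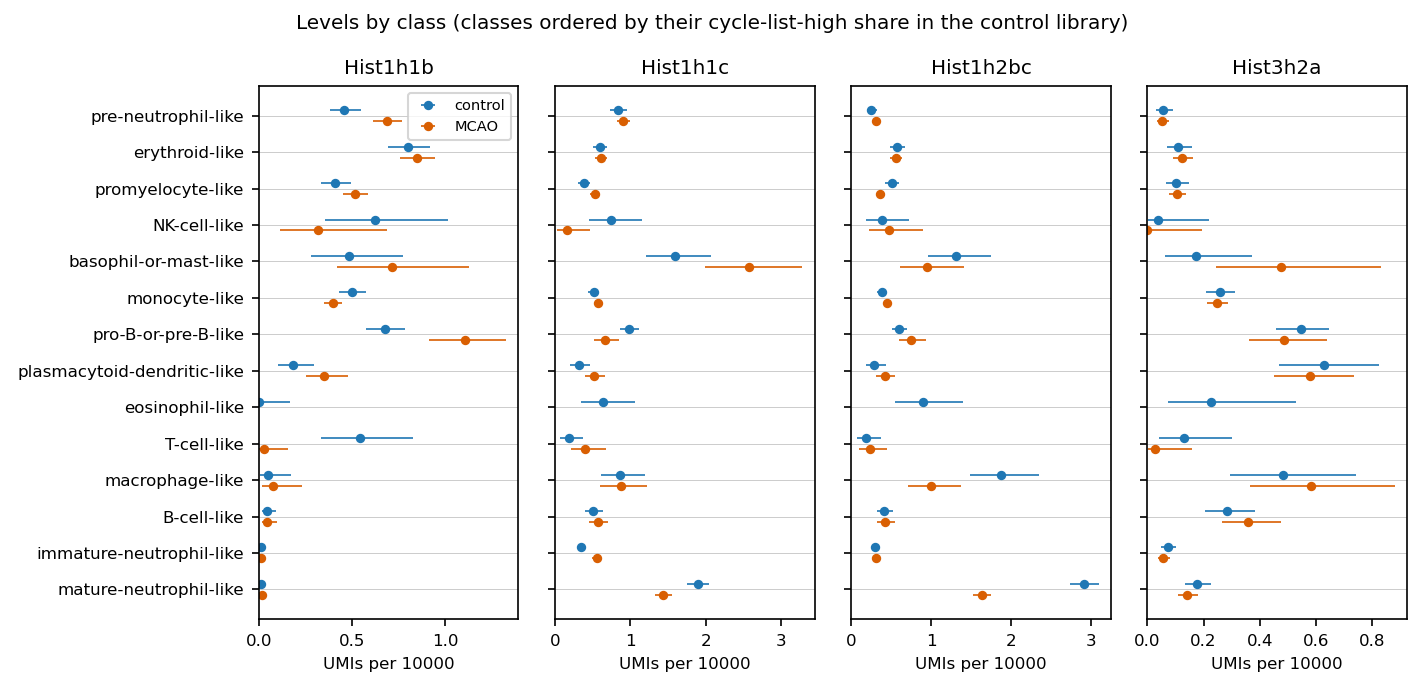
Levels of Hist1h1b, Hist1h1c, Hist1h2bc and Hist3h2a by class, in UMIs per 10000 with 95% Poisson intervals, control in blue and MCAO in orange, classes with the highest cycle-list-high share at the top; eosinophil-like cells of the MCAO library (25 cells) are not drawn. Hist1h1b is at most 0.079 in both libraries of the macrophage-like, B-cell-like and neutrophil-like classes at the bottom, where Hist1h2bc reaches 2.91.

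High and low cells of 1 class can be compared where both sets had enough cells. In monocyte-like cells the summed level was 5.78 against 2.14 in the control library and 6.10 against 2.11 in the MCAO library, folds of 2.71 (2.41 to 3.04) and 2.89 (2.66 to 3.15). The pro-B-or-pre-B-like class had 7.80 against 3.20 in control and 7.94 against 3.99 in MCAO cells. The difference between high and low cells was thus present within these classes, not only between them. Hist1h1b gave 193 UMIs in 186 control monocyte-like high cells and 1 UMI in 351 low cells, and 278 and 4 in the MCAO library.

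Genes that handle histones were read beside the members and beside all tested genes, of which 23.1% were 2-fold higher in each library, with medians of 0.30 and 0.35. Of the 10 listed histone genes outside the clusters with enough UMIs, 7 were 2-fold higher in high cells of each library, with a median log2 difference of 1.52 and 1.29. H2afx, the damage-marked H2A variant, had folds of 9.99 and 9.55, and H3f3b, which encodes the replacement histone H3.3, 1.17 and 1.35. Of 14 genes for histone mRNA transcription and processing, 6 were 2-fold higher in each library (median 0.90 and 0.84): Slbp, the stem-loop binding protein, had folds of 5.79 and 5.99, Npat, the transcriptional coactivator of the clusters, 3.28 and 4.35, and Lsm10, part of the U7 particle, 0.593 and 0.656. Of 12 chaperones 10 and 11 were 2-fold higher (median 2.33 and 2.43), among them Chaf1a, of the chromatin assembly factor, with 17.6 and 32.7, and Asf1b, an H3-H4 chaperone, with 12.1 and 13.3. The S list (38 of 38 tested genes) and the G2/M list (43 of 44) defined the cell sets, so their counts are no result.

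Between the libraries, the summed level in cycle-list-high cells was nearly equal, at 5.52 in control and 5.68 in MCAO cells, a ratio of MCAO over control of 1.03 (0.998 to 1.06). The types behind that sum differed in direction. H2A was at 0.723 in control and 0.414 in MCAO high cells, a ratio of 0.573 (0.519 to 0.632), and H3 at 0.424 and 0.317, a ratio of 0.749 (0.664 to 0.845). Without Hist1h3c the H3 ratio was 0.857 (0.728 to 1.01), and with it 1 of 6 classes had an interval below 1. H2B was at 1.34 and 1.59, a ratio of 1.18 (1.11 to 1.26), H4 at 0.923 and 1.08 (1.17, 1.09 to 1.26) and H1 at 2.10 and 2.27 (1.08, 1.03 to 1.14). In all 6 classes with at least 30 high cells per library the H2A ratio was below 1, from 0.461 to 0.641, and the H2B ratio above 1, from 1.04 to 1.62, with intervals that excluded 1 in 5 classes for each type. Both types thus had the same direction within these classes as over all high cells.

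**Figure D5:**
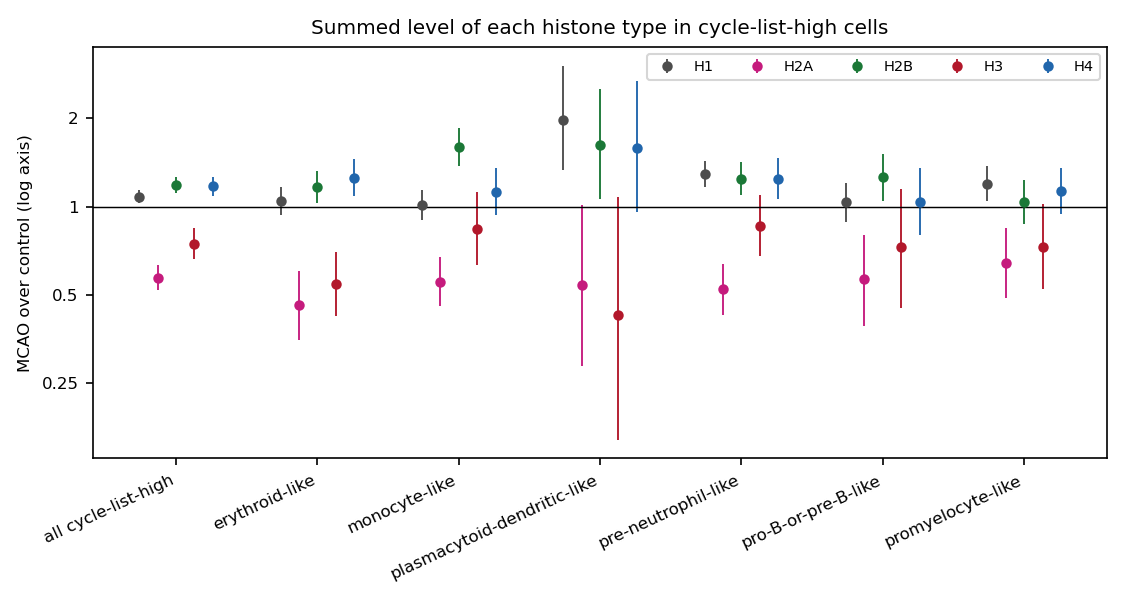
Ratio of the MCAO over the control library of the summed level of each histone type in cycle-list-high cells, on a log axis with exact 95% intervals for counting error, over all such cells and in 6 classes. H2A (magenta) lies below 1 throughout, from 0.461 to 0.641 by class, and H2B (green) lies above 1.

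1 gene carried much of the H2A difference. Hist1h2ae had 311 UMIs in control high cells and 133 in MCAO high cells, or 0.252 and 0.073 per 10000, a ratio of 0.290 (0.235 to 0.357). It was the 1 of 41 tested members past 2-fold lower in the MCAO library, against 1.38% of 12467 genes, and 0 members were past 2-fold higher, against 0.16%. Without Hist1h2ae the H2A ratio was 0.724 (0.646 to 0.813), and it was below 1 in 5 of the 6 classes, with intervals that excluded 1 in 2 of them, against 5 with the gene; the exception was the promyelocyte-like class at 1.05 (0.736 to 1.51). Hist1h2ae itself had a lower level in the MCAO library in each of the 6 classes, for example 71 against 20 UMIs in erythroid-like and 63 against 26 in pre-neutrophil-like high cells; in plasmacytoid-dendritic-like cells this rested on 5 and 2 UMIs. Other low ratios were 0.274 (0.152 to 0.477) for Hist1h2ak, 0.397 (0.259 to 0.601) for Hist2h2ac, 0.485 (0.342 to 0.683) for Hist1h3e and 0.633 (0.528 to 0.759) for Hist1h3c. None of these was past 2-fold lower with 0.02 added, so the count of 1 depends on the added value. The highest ratios were 2.04 (1.28 to 3.34) for Hist1h2bp, 2.04 (1.32 to 3.22) for Hist2h4 and 1.97 (1.39 to 2.86) for Hist1h2bk, all below 2-fold with 0.02 added, and Hist1h2bb was at 1.73 (1.42 to 2.12). Hist1h2bk shares 68.8% of the 100-base words in its last 400 bases with other genes, so its count is uncertain. The occlusion and the library cannot be told apart here.

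Most H2A genes sit head to head with an H2B gene. Of 10 such pairs with starts within 500 bases, 5 had enough UMIs in both genes, and in all 5 the H2A ratio was below that of its H2B partner, with intervals that did not overlap in 3. They overlapped for Hist1h2ac (0.790, 0.663 to 0.940) and Hist1h2bc (0.917, 0.825 to 1.02), both below 1, and for Hist1h2an (1.12, 0.624 to 2.06) and Hist1h2bp, both above 1. The genes of these pairs also enter the H2A and H2B sums above, so the count of pairs is no separate result. Hist1h2an shares 83.3% and Hist1h2bp 30.6% of the 100-base words near the transcript end with other genes, so their counts are uncertain. Next to Hist1h2ae lies Hist1h2bg, named here after its values were seen, which had 80 UMIs in control and 174 in MCAO high cells, or 0.065 and 0.096, a ratio of 1.48 (1.13 to 1.95). The 179 bases between the RefSeq starts of these 2 genes, chr13:23571221-23571399 in GRCm38.p6, are shown on the plus strand, where Hist1h2bg reads to the right and Hist1h2ae to the left. Capitals mark CCAAT and the octamer ATTTGCAT on either strand.
Hist1h2ae-Hist1h2bg: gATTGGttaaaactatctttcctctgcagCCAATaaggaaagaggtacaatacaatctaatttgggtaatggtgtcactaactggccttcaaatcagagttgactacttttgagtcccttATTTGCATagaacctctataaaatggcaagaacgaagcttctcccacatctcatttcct
This 1 stretch lies upstream of both genes, and the gene to its left was lower and the gene to its right higher in the MCAO library. The octamer was found in the promoters of 6 of 13 H2A and 5 of 12 H2B genes, in 0 of the H1, H3 and H4 promoters, and in 1.74% of 32851 promoters. Hist1h2ae shares 34.9% of the 100-base words in its last 400 bases with other genes and overlaps Gm44394 on the other strand, so the split of its UMIs among copies is uncertain.

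In cycle-list-low cells the summed level was 2.95 in control and 2.47 in MCAO cells, a ratio of 0.838 (0.803 to 0.875). The classes differed in direction: the ratio was 0.671 (0.629 to 0.715) in mature-neutrophil-like low cells, 1.20 (1.07 to 1.34) in immature-neutrophil-like low cells and 1.16 (0.983 to 1.38) in B-cell-like low cells. Of 13 members with enough UMIs, 0 were past 2-fold in either direction, against 0.34% of 12072 genes higher and 1.39% lower in the MCAO library. Hist1h2bc gave most of the difference, at 1.03 in control and 0.707 in MCAO low cells, a ratio of 0.684 (0.633 to 0.739), while Hist1h1c was at 0.843 and 0.789, a ratio of 0.937 (0.865 to 1.01). That pooled Hist1h1c ratio joins opposite directions in level, 0.760 (0.680 to 0.848) in mature-neutrophil-like and 1.59 (1.30 to 1.95) in immature-neutrophil-like low cells. Per cell of the whole class, Hist1h1c was nearly equal in mature cells, at 0.493 UMIs in control and 0.492 in MCAO cells. Immature cells had 0.176 and 0.320. Summed histone UMIs per cell were 1.55 and 1.36 in mature and 0.597 and 0.805 in immature cells. MCAO cells of both classes were deeper, with medians of 3147.5 against 2356.5 and 5736 against 4845 UMIs. Over all low cells Hist1h2be was lower in level too, with a ratio of 0.669 (0.513 to 0.871).

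The difference of Hist1h2bc was seen in mature-neutrophil-like low cells, at 2.87 in control and 1.63 in MCAO cells, a ratio of 0.568 (0.516 to 0.625). Macrophage-like low cells had 2.12 and 1.05, a ratio of 0.496 (0.326 to 0.743), and immature-neutrophil-like low cells 0.299 and 0.296. The mature class was made of 3 clusters held in different shares by the libraries: cluster 1 with 55.3% of the control and 44.6% of the MCAO cells of the class, cluster 4 with 40.0% and 16.4%, and cluster 7 with 4.65% and 39.0%. Within cluster 1 Hist1h2bc was at 4.37 and 2.57, a ratio of 0.590 (0.519 to 0.669). Within cluster 4 it was at 1.78 and 1.42, a ratio of 0.798 (0.644 to 0.985), and within cluster 7 at 1.46, from 27 UMIs, and 1.07, a ratio of 0.738 (0.495 to 1.14). Per cell the difference was seen in cluster 1 alone, at 0.909 Hist1h2bc UMIs in control and 0.645 in MCAO cells; it was 0.583 and 0.570 in cluster 4 and 0.443 and 0.452 in cluster 7. MCAO cells of each cluster were deeper, with medians of 2357 against 1931, 3851 against 3144 and 4009 against 2897 UMIs. The part of the uneven cluster shares in the pooled ratio was not tested.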

How the data were processed

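Per the labels' protocols, marrow from tibias and femurs was freed of red cells by lysis and captured on the BD Rhapsody microwell system. Per the submitters' processing notes, the tools included STAR, fastp, UMI-tools and Seurat 4.0.6, with build mm10. The sources used here do not give settings or annotation. The authors deposited natural log values, ln(1 + 10000 × share of the cell's UMIs), and whole UMIs were recovered from them for 100% of 19373615 values (tolerance 0.01). Cells were assigned to libraries from column names that contain Mandarin words for control or stroke, and 0 columns belonged to no sample.

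UMIs were summed over cells and given per 10000 with exact Poisson intervals, shares with exact binomial (Clopper-Pearson) intervals and ratios with exact conditional binomial intervals, all at 95%. With 1 library per group there was no test. A gene counted as 2-fold higher or lower on levels plus 0.02 per 10000, if it had at least 50 UMIs. The count was tested on simulated data before use. Classes came from Leiden clustering (scanpy 1.11.5, leidenalg 0.10.2, 2000 variable genes, 30 components, 20 neighbours, resolution 1) without histone cluster genes, which gave 23 clusters, named from 19 marker sets. These classes need not match those of the study. Scrublet marked 52 control (0.998%) and 57 MCAO (1.06%) cells as doublets, which were kept. No cell filter was added.

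The members and all lists were chosen with earlier results of these data known. Named members are the 12 with most UMIs, the 4 highest and 4 lowest of high over low cells, the 4 furthest from 0 between libraries in high and in low cells, and the leading member of each class's low cells; Hist1h1a, Hist1h2ad, Hist1h2an, Hist1h2bg, Hist1h2bk, Hist1h2bp, Hist2h4 and Hist3h2bb-ps were added after values were seen. Gene models were those of GENCODE M21, and promoter windows and starts those of RefSeq (GRCm38.p6), matched by symbol for 50 of 57 members. The alternatives were other cycle-list thresholds (25 and 100 per 10000), cells with at least 2000 UMIs, thinning to 1000 UMIs, means of per-cell levels, 0.1 added in place of 0.02, equal class weights, doublets left out and resolution 2.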

Additional observations from a re-analysis of the deposited data

How the results depend on the processing

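The log2 ratio of the summed level of cycle-list-high over cycle-list-low cells was 0.90 for the control and 1.20 for the MCAO library. It was 0.84 in the control library with a threshold of 25 per 10000, 1.05 and 1.26 with 100 per 10000, 1.08 and 1.28 in cells with at least 2000 UMIs, 0.81 and 1.07 as a mean of per-cell levels and 0.69 and 1.00 after thinning to 1000 UMIs. The counts of members at least 2-fold higher, 22 and 23, became 7 and 8 with 0.1 added and 4 and 5 after thinning, where fewer UMIs remain. No share over all genes is given at these settings. For MCAO over control the log2 ratio of the summed level in high cells, 0.04, was -0.018 as a mean of per-cell levels and 0.12 with classes weighted alike, so its sign is not fixed. In low cells, -0.25 became -0.16 in cells with at least 2000 UMIs and -0.14 with classes weighted alike. The 1 member past 2-fold lower in MCAO high cells became 0 after thinning. The log2 ratio of the H2A sum, -0.80, was -0.47 without Hist1h2ae, and that of the H3 sum, -0.42, was -0.22 without Hist1h3c, both alternatives chosen after seeing the data. The class ratio of plasmacytoid-dendritic-like cells reversed from 0.34 to -0.21 with clusters at resolution 2, where the promyelocyte-like class had no value. For these results the cause was not tested beyond the fewer UMIs or cells that the setting itself leaves. No paired analysis was possible because each condition has 1 library and the labels give no replicate numbers. The depth limits members with under 50 UMIs, and a level of 0 in a set allows up to 3 UMIs of its total.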
